A study of Mus musculus with 10 samples.

Results

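The HOX genes are 33 homeobox genes of the Hoxa, Hoxb, Hoxc and Hoxd clusters that had a probe set of their own on Affymetrix Mouse Genome 430 2.0 arrays. They were taken by symbol, whatever their level, with the probe set of highest mean where a gene had several, out of 18193 genes measured in the same way. Cluster A gave 9 genes, cluster B 9, cluster C 7 and cluster D 8. The mouse RefSeq gene table lists 39 HOX genes, and the others were not analysed here. HOX proteins are homeodomain transcription factors that give cells their position along the body axis. Genes are numbered by their place in the cluster, genes of the same number in different clusters are paralogues, and low numbers act towards the head while the highest numbers act in the tail end, hindgut included. In the adult colon they are expressed in epithelium and in mesenchyme, and they bind DNA with TALE homeodomain partners, under the influence of Cdx factors, retinoic acid and Polycomb and Trithorax chromatin proteins.

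The tumours came from mice in which the intestinal epithelium lacked Bcl9 and its paralogue Bcl9l, co-factors that join beta-catenin to Pygopus proteins at TCF/LEF-bound Wnt target genes, and from wild-type mice. KO denotes the genotype vil-Cre-Bcl9-/-/Bcl9l-/-, in which the villin promoter drives Cre in gut epithelium and not in stroma. The groups were 5 KO tumours from 3 mice (KO 2 and KO 6 from mouse 02, KO 7 from mouse 99, KO 9 and KO 11 from mouse 04) and 5 WT tumours from 2 mice (WT 1, WT 3, WT 12 and WT 13 from mouse 72, WT 8 from mouse 82). All mice had the 129SvEv/C57BL/6/DBA/2 mixed background and, at 6 to 8 weeks of age, received 1 dose of the colon carcinogen dimethylhydrazine (44 mg/kg) and then 2% dextran sulfate sodium, which inflames the colon, for 7 days. Tumour tissue was laser dissected from colon sections of 14 µm, and 30 ng of RNA were amplified for each array. The labels describe pooling of the dissected material of a mouse but list several arrays for single mice, and the position of a tumour along the colon is not given in them. Tumours of a mouse are not independent animals, so p-values measure the spread between these samples.

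Values are log2 signals of a probe set, which can be compared between tumours but not between genes. The array medians lay between 6.43 and 6.50. Genes with a mean of at least 5.82, the 40th percentile of all probe sets, were tested (12250 genes), and 16 of the 33 HOX genes were among them. The other 17 are described by their values. The 2 Bcl9 probe sets read 8.35 to 8.84 and 7.09 to 7.66 in KO tumours, against 8.07 to 8.53 and 6.76 to 7.29 in WT tumours. Of the 3 Bcl9l probe sets 1 read 4.55 to 4.67 in KO tumours and 4.70 to 4.83 in WT tumours, without overlap, and the other 2 overlapped. Since the labels do not say which exons were deleted, none of these probe sets checks the genotype. The unique numbers in the labels fall into the ranges 191 to 229 (1 KO and 4 WT tumours) and 254 to 258 (4 KO and 1 WT), and what they stand for is not said. Mean signals of the epithelial marker list were 12.23 to 12.59 in KO and 11.70 to 12.76 in WT tumours, and those of the fibroblast list 8.80 to 9.92 in KO and 9.02 to 10.06 in WT tumours. Those of the lymphocyte list were 8.27 to 8.73 in KO and 6.41 to 7.18 in WT tumours. In the lymphocyte list 3 of 4 tested markers passed the test as higher in KO tumours, where 4.16% of all tested genes did. In dissected tissue, fewer cells of a type and less RNA per cell cannot be told apart.

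In 7 HOX genes of clusters B and D the tumours differed from one another by amounts few other genes reached, and much of this lay within the genotypes. Over the 10 tumours, 7 of the 33 HOX genes (21.2%) spanned more than 4 log2 units, against 1.62% of all 18193 genes. These were Hoxb5 and Hoxb6 in cluster B and Hoxd8, Hoxd9, Hoxd10, Hoxd11 and Hoxd13 in cluster D. Hoxb5, Hoxb6 and Hoxd8 spanned 0.85, 0.58 and 0.55 within the KO tumours, against 4.34, 4.51 and 5.62 within the WT tumours. In Hoxd9, Hoxd10, Hoxd11 and Hoxd13 the wide KO range came from KO 6 alone. The median range was 1.31 for HOX genes and 0.74 for all genes. By cluster it was 5.26 in D, 2.56 in B, 1.57 in A and 0.48 in C. Some members varied little: 90.8% of tested genes had a wider range than Hoxa9, and 99.4% a wider one than Hoxc8. Hoxc8 was not a tested gene, with a mean of 2.33, and only 1 of the 7 cluster C genes reached the level filter.

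**Figure D1:**
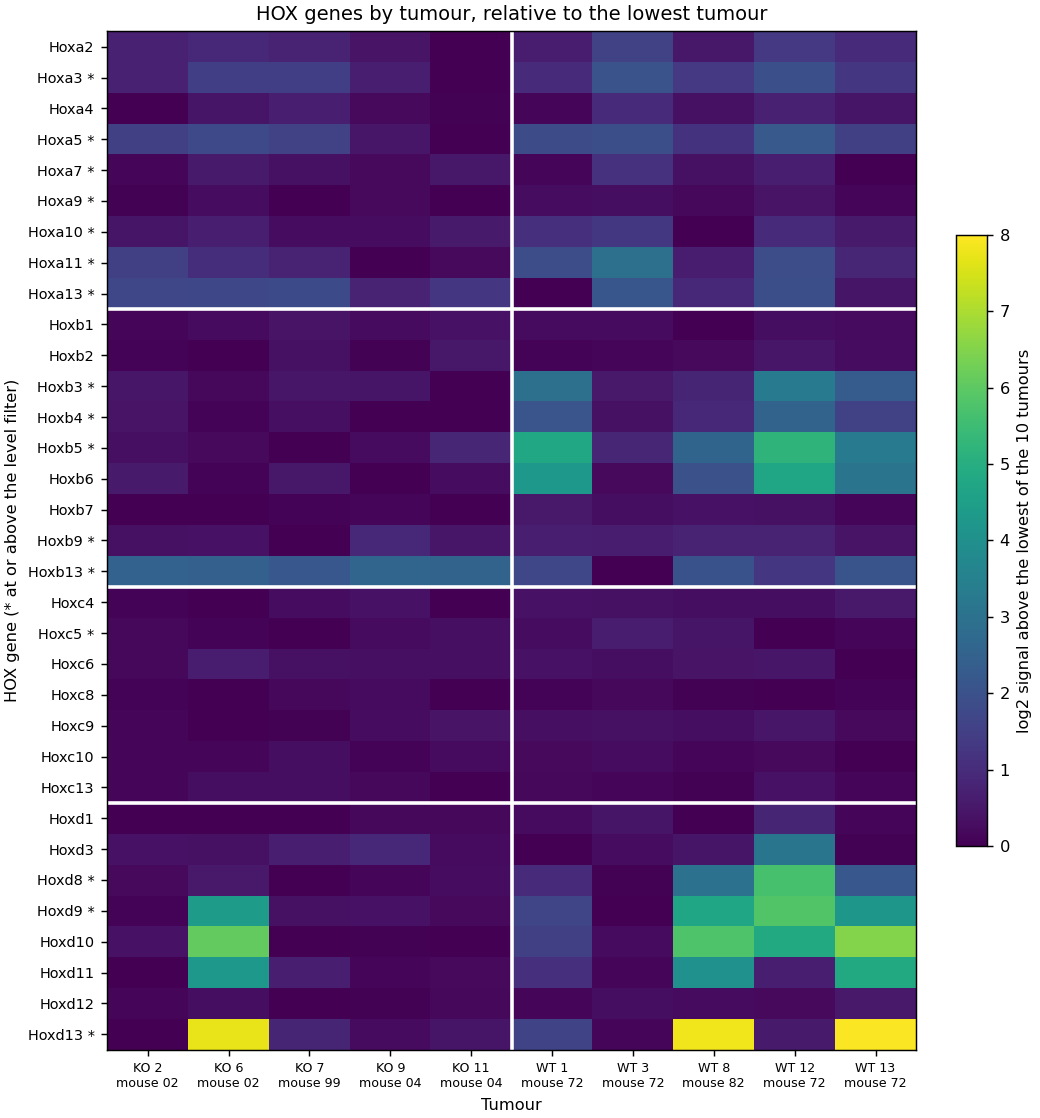
Signal of the 33 HOX genes (rows, by cluster and paralogue number) in the 5 KO and 5 WT tumours (columns), as log2 units above the lowest tumour of that gene, and a star marks genes at or above the level filter of 5.82. Cluster D genes from Hoxd9 to Hoxd13, other than Hoxd12, stand high in KO 6, WT 8 and WT 13, and Hoxb3 to Hoxb6 stand high in WT 1, WT 12 and WT 13.

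Cluster B held the HOX gene that passed the test. Hoxb5, which in mice takes part in the development of the enteric nervous system, read 5.18, 5.05, 4.85, 5.10 and 5.70 in KO 2, KO 6, KO 7, KO 9 and KO 11. It read 9.65, 5.71, 7.44, 10.05 and 8.12 in WT 1, WT 3, WT 8, WT 12 and WT 13. All KO tumours lay below all WT tumours, but WT 3 exceeded KO 11 by very little. The KO tumours and WT 3 lay under the level filter, which Hoxb5 reached on its mean over all tumours. Hoxb5 averaged 5.18 ± 0.32 in the KO tumours, against 8.19 ± 1.75 in the WT tumours (n = 5 each, SD), a fitted KO minus WT difference of -3.00 ± 0.75 (SE) or 7.98-fold, with an adjusted p of 0.0379 by limma with the mouse as a random block and Benjamini-Hochberg adjustment over 12250 genes. In that fit 359 genes (2.93%) were lower in KO tumours, 1 of them a HOX gene, and 509 (4.16%) were higher, none of them a HOX gene. With no level filter 983 of 18193 genes passed (5.4%), and of the HOX genes again Hoxb5.

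The Hoxb5 call was lost without KO 2 (adjusted p = 0.0588 by limma), KO 6 (0.101), KO 7 (0.0578), KO 11 (0.0508), WT 1 (0.0904) or WT 13 (0.0626), and without mouse 02 (0.125) or mouse 04 (0.0811), while the difference lay between -3.58 and -2.55 whichever tumour was left out. Among numbers 191 to 229 the difference was -3.00 and among 254 to 258 it was -4.40, values with no test here and below, since 1 group then holds 1 tumour, and in a fit that adds the range it was -3.66 (adjusted p = 0.0441).

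Hoxb3, Hoxb4 and Hoxb6, beside Hoxb5 in the cluster, ranked the WT tumours as Hoxb5 did. Hoxb6, a paralogue 6 gene of trunk patterning, lay under the level filter on average. It read 3.92, 3.41, 3.84, 3.33 and 3.61 in KO 2, KO 6, KO 7, KO 9 and KO 11, against 7.59, 3.53, 5.30, 8.05 and 6.40 in WT 1, WT 3, WT 8, WT 12 and WT 13. WT 12 and WT 1 were highest, WT 13 and WT 8 followed, and WT 3 lay within the KO range, so the groups overlapped. Hoxb4, known for expanding blood stem cells, read 6.57, 6.20, 6.45, 6.15 and 6.13 in the KO tumours in the order above, against 8.25, 6.48, 7.03, 8.69 and 7.68 in the WT tumours. WT 3 again fell inside the KO range. The fitted difference of Hoxb4 was -1.30 ± 0.39 (SE), with an unadjusted p of 0.00645 and an adjusted p of 0.0715 by limma.

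Hoxb3, a gene of hindbrain patterning, read 5.33, 5.02, 5.32, 5.31 and 4.85 in KO 2, KO 6, KO 7, KO 9 and KO 11, against 7.80, 5.39, 5.68, 8.14 and 7.19 in WT 1, WT 3, WT 8, WT 12 and WT 13. The groups did not overlap, though WT 3 and WT 8 lay just above the highest KO tumour. Its difference was -1.63 ± 0.53 (SE; adjusted p = 0.0948 by limma), and its second probe set, at 3.89 to 4.32 in KO and 4.38 to 6.77 in WT tumours, had no overlap either. Without WT 3 the adjusted p was 0.0283 for Hoxb3 and 0.0171 for Hoxb4. Hoxb7 spanned little, 4.88 to 4.997 in KO and 5.02 to 5.42 in WT tumours, with no overlap and a mean under the filter. A probe set shared by Hoxb8 and Hoxb7 read 3.28 to 4.09 in KO tumours and, in WT 1, WT 3, WT 8, WT 12 and WT 13, 5.70, 3.52, 4.56, 5.90 and 4.94. Hoxb9, a gene of the thoracic region, lay between 7.09 and 7.98 in KO and between 7.52 and 7.89 in WT tumours (adjusted p = 0.415). Hoxb1 and Hoxb2, which pattern the hindbrain, stayed within 2.52 to 3.58 in KO and 2.37 to 3.55 in WT tumours.

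The gene at the other end of the cluster lay the other way. Hoxb13, the most posterior gene of cluster B, read 11.59, 11.50, 11.23, 11.68 and 11.60 in KO 2, KO 6, KO 7, KO 9 and KO 11, against 10.78, 9.06, 11.07, 10.34 and 11.13 in WT 1, WT 3, WT 8, WT 12 and WT 13. Every KO tumour lay above every WT tumour (KO 7 and WT 13 lay closest), and WT 3 was far below the others. The fitted difference was 1.02 ± 0.37 (SE), 2.03-fold, with an unadjusted p of 0.0184 and an adjusted p of 0.129 by limma. Without WT 3 it was 0.67 (adjusted p = 0.0578). Groups without overlap occurred in 4 of the 33 HOX genes, Hoxb3, Hoxb5 and Hoxb7 with KO lower and Hoxb13 with KO higher, and in 7.56% of all genes. Of the 16 tested HOX genes 3 had no overlap, against 9.12% of all tested genes, with KO lower in 2 (3.79% of all tested genes) and higher in 1 (5.33%).

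**Figure D2:**
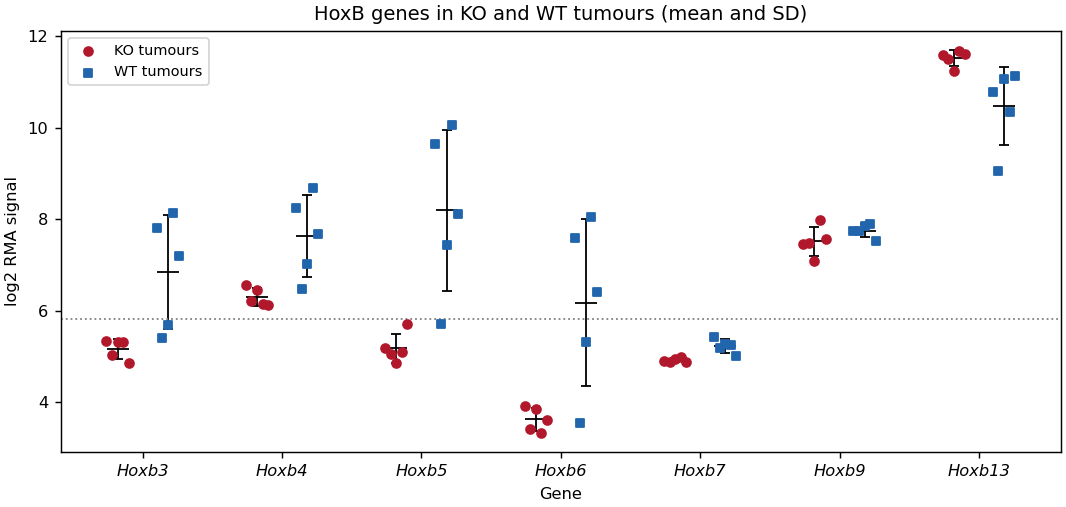
Log2 signal of Hoxb3, Hoxb4, Hoxb5, Hoxb6, Hoxb7, Hoxb9 and Hoxb13 in each KO tumour (left) and WT tumour (right), with the mean ± SD of 5 tumours, and the dotted line marks the level filter of 5.82. The KO tumours lie close together for Hoxb3 to Hoxb6, whereas the WT tumours spread upwards from WT 3 to WT 12.

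Cell type markers were read in the same tumours. The fibroblast mean was 9.92, 9.23, 9.19, 8.80 and 9.17 in KO 2, KO 6, KO 7, KO 9 and KO 11, against 10.06, 9.02, 9.60, 9.72 and 9.86 in WT 1, WT 3, WT 8, WT 12 and WT 13. Of the 9 tested fibroblast genes 0 passed, where 7.09% of all tested genes did. An unadjusted p under 0.05 in limma was reached by 2 of the 9, against 22.4% of all tested genes. The median difference of the fibroblast list was -0.37, against 0.03 for all tested genes in the same fit. WT 3, with the lowest fibroblast mean of the WT tumours, had the lowest Hoxb3 to Hoxb6, while KO 2 had a fibroblast mean of 9.92 and Hoxb5 at 5.18. With the 3′ to 5′ signal difference of the arrays, 0.71 to 1.17 in KO and 0.78 to 1.14 in WT tumours, as a covariate, the Hoxb5 difference was -2.81 with an adjusted p of 0.0952 in limma. The part of the fibroblasts, the lymphocytes and RNA quality in these results was not tested.

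Cluster D split the tumours in another way, across genotypes and within mice. The promoters of 4 genes of this cluster are shown first, as the 250 bases before each start in RefSeq on GRCm38.p6, all on the plus strand: Hoxd8 (chr2:74704365-74704614) and Hoxd12 (chr2:74674763-74675012) because they hold a TCF/LEF motif, and Hoxd9 (chr2:74697513-74697762) and Hoxd13 (chr2:74667975-74668224) because they varied widely and hold none.
Hoxd8: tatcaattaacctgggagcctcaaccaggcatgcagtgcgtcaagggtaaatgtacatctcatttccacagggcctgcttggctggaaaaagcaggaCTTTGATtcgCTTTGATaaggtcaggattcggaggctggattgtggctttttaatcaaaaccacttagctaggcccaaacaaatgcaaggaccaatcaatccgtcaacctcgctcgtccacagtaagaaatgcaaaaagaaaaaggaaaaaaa
Hoxd9: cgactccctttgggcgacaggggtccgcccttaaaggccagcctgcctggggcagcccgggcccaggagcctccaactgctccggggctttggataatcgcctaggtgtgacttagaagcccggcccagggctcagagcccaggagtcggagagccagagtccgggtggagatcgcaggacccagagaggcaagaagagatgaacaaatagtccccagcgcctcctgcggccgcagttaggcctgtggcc
Hoxd12: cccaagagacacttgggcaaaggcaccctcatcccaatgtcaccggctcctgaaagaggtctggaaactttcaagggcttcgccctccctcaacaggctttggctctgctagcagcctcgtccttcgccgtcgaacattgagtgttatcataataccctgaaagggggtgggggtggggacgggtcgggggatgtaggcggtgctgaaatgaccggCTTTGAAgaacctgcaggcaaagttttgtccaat
Hoxd13: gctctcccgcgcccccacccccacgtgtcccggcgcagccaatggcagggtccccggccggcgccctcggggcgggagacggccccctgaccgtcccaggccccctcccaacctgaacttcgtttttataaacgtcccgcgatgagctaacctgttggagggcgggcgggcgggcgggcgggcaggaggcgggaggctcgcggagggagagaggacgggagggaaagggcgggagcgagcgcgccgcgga
Capitals mark the TCF/LEF motif, CTTTGAT or CTTTGAA, searched on both strands. Hoxd8 had CTTTGAT with first bases 153 and 143 bases before its start, and Hoxd12 had CTTTGAA at 34. Of 33 HOX genes 19 had a promoter in the table, with 21 entries, of which 2 held this motif, against 7.48% of all 32851 promoters. In cluster B only Hoxb1 and Hoxb4 had an entry, so the promoters of Hoxb3, Hoxb5, Hoxb6 and Hoxb13 were not searched. The CDX motif TTTATG, searched on both strands, was in 3 entries, of Hoxa7, Hoxd3 and Hoxd11, against 10.8% of all promoters. The motifs were chosen with results known, and a match describes the letters only.

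Hoxd13, the gene at the posterior end of the cluster, which shapes digits, genitalia and hindgut, had the widest range of any HOX gene. It read 3.63, 11.38, 4.45, 3.87 and 4.07 in KO 2, KO 6, KO 7, KO 9 and KO 11, against 5.28, 3.74, 11.45, 4.22 and 11.58 in WT 1, WT 3, WT 8, WT 12 and WT 13. KO 6, WT 8 and WT 13 lay together near the top, and a gap of 6.10 log2 units separated them from the other 7 tumours. Only 0.0653% of tested genes had a wider range. A second Hoxd13 probe set read 8.35, 8.47 and 8.35 in KO 6, WT 8 and WT 13 and 4.67 to 5.25 in the others. The difference between the genotypes was -1.93 ± 2.11 (SE), with an adjusted p of 0.644 by limma. It was -3.50 without KO 6, -0.73 without WT 8 and -0.77 without WT 13.

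Hoxd10 and Hoxd11, posterior genes of limb and lower trunk with means under the filter, followed a related order. Hoxd10 read 3.59, 9.27, 3.20, 3.25 and 3.23 in KO 2, KO 6, KO 7, KO 9 and KO 11, against 4.71, 3.42, 9.0, 8.05 and 9.72 in WT 1, WT 3, WT 8, WT 12 and WT 13. Hoxd11 read 3.63, 7.91, 4.29, 3.75 and 3.83 in the KO tumours in that order, against 4.74, 3.76, 7.68, 4.30 and 8.48 in the WT tumours. KO 6, WT 8 and WT 13 were high in both genes, WT 12 was high in Hoxd10 alone, and the groups overlapped. Hoxd12, which lies between Hoxd11 and Hoxd13, was flat, at 5.16 to 5.46 in KO and 5.30 to 5.71 in WT tumours. It had 1 probe set, with a mean under the filter.

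In Hoxd9 and Hoxd8, towards the middle of the cluster, WT 12 was the highest tumour. Hoxd9, a posterior gene of spine and limb, read 4.91, 9.25, 5.21, 5.24 and 5.05 in KO 2, KO 6, KO 7, KO 9 and KO 11, against 6.53, 4.85, 9.59, 10.67 and 9.10 in WT 1, WT 3, WT 8, WT 12 and WT 13. KO 6 was the lone high KO tumour, and WT 3 was the lowest of all 10. The difference of Hoxd9 was -2.27 ± 1.25 (SE; adjusted p = 0.321 by limma). Hoxd8 read 4.76, 5.11, 4.56, 4.67 and 4.81 in the KO tumours in that order, against 5.52, 4.61, 7.55, 10.23 and 6.72 in the WT tumours. Here KO 6 stood only slightly above the other KO tumours, WT 12 was highest, and WT 3 lay inside the KO range. The Hoxd8 difference was -2.17 ± 0.91 (SE), 4.5-fold, with an unadjusted p of 0.0367 and an adjusted p of 0.188 by limma. When tumours of a mouse were averaged first it was -2.42 (adjusted p = 0.015 by limma). That fit sets 3 KO mice against 2 WT mice, and averaging hides the spread of 4.61 to 10.23 within mouse 72. In a fit that adds the number range the Hoxd8 difference was -1.71 (adjusted p = 0.435 by limma), and without WT 12 it was -1.35. It was -2.71 among numbers 191 to 229 and -0.68 among 254 to 258.

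Towards the anterior end the signal narrowed to 1 tumour. Hoxd3, a gene of the neck vertebrae, read 6.34 in WT 12 and between 3.22 and 3.67 in the other WT tumours, against 3.46 to 4.12 in KO tumours. Hoxd1 lay between 2.34 and 2.52 in KO and between 2.35 and 3.18 in WT tumours, with WT 12 highest. The antisense transcript Hoxd3os1 read 2.67 to 3.19 in KO tumours and 3.59, 2.73, 4.64, 9.64 and 4.86 in WT 1, WT 3, WT 8, WT 12 and WT 13, so that WT 12 stood out there too. It was chosen after its values were seen. All 8 cluster D genes had a lower mean in KO tumours, against 9080 of all 18193 genes. Their median difference was -1.44, and none of the 3 tested ones passed.

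**Figure D3:**
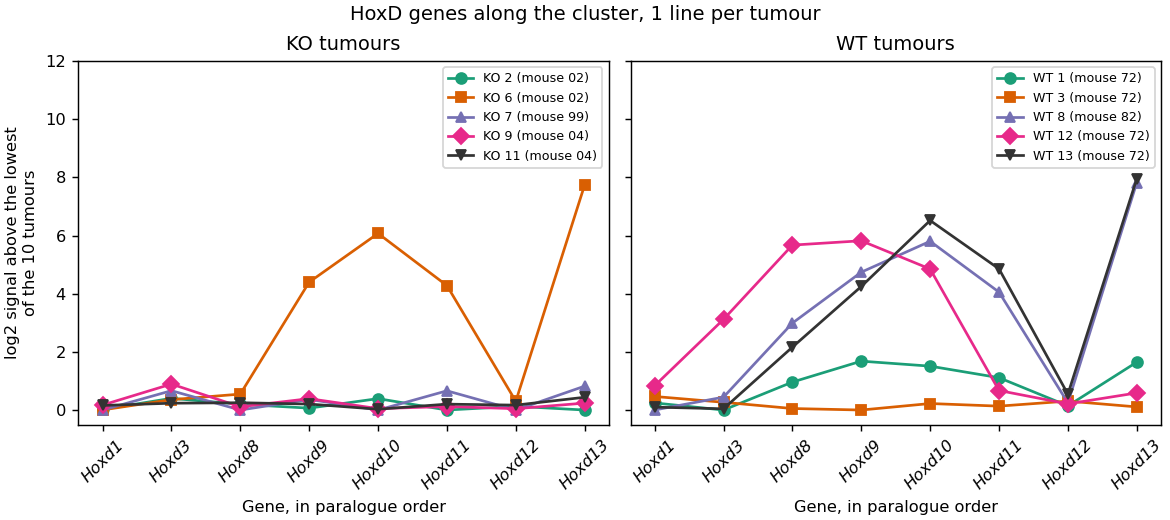
Log2 signal above the lowest tumour for cluster D genes in paralogue order, a line per tumour, with KO tumours in the left panel and WT tumours in the right panel. KO 6, WT 8 and WT 13 peak at Hoxd9 to Hoxd11 and at Hoxd13, and WT 12 stands high from Hoxd3 to Hoxd10. For Hoxd12 all 10 tumours stay close to the lowest tumour of that gene.

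Tumours of the same mouse fell on both sides of this split. Mouse 72 gave WT 13, high in Hoxd13, and WT 3, low in it, and mouse 02 gave KO 6, high, and KO 2, low. KO 6, WT 8 and WT 13 had fibroblast means of 9.23, 9.60 and 9.86 and epithelial means of 12.29, 12.42 and 12.08, inside the range of the other 7 tumours. Tumours high in Hoxd13 were in both number ranges. The part of cell types, of the number range and of the position along the colon in this split was not tested.

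Cluster A genes varied less and mostly lay a little lower in KO tumours. Hoxa11, a gene of kidney, uterus and limb, read 8.36, 7.87, 7.63, 6.83 and 7.05 in KO 2, KO 6, KO 7, KO 9 and KO 11, against 8.72, 9.79, 7.48, 8.72 and 7.70 in WT 1, WT 3, WT 8, WT 12 and WT 13. WT 3 was highest and the mouse 04 tumours, KO 9 and KO 11, were lowest, with overlap between the groups. Hoxa11 averaged 7.55 ± 0.62 in the KO tumours, against 8.48 ± 0.93 in the WT tumours (n = 5 each, SD), a difference of -0.90 ± 0.46 (SE; adjusted p = 0.281 by limma). Without WT 3 the difference was -0.57, and without mouse 72, which leaves 1 WT tumour, it was 0.07.

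The other tested cluster A genes did not pass either. Hoxa3, needed for thymus and parathyroid, averaged 9.80 ± 0.63 in the KO tumours, against 10.44 ± 0.47 in the WT tumours (adjusted p = 0.293 by limma), and Hoxa5, which acts in lung and gut mesenchyme, 8.06 ± 0.78 in KO, against 8.72 ± 0.40 in WT tumours (adjusted p = 0.331; n = 5 each, SD). Hoxa9 and Hoxa10, known for their roles in blood and uterus, had differences of -0.15 ± 0.10 and -0.31 ± 0.23 (SE), and Hoxa7 had -0.10 ± 0.22. Hoxa13, with Hoxd13 a regulator of hindgut and genital development, was the tested cluster A gene with a higher KO mean, 6.49 ± 0.44, against 6.12 ± 0.93 in WT tumours (n = 5 each, SD; adjusted p = 0.664). Hoxa2 and Hoxa4, under the filter, had raw differences of -0.43 and -0.25.

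WT 3 had the highest signal in 5 of the 7 tested cluster A genes and WT 12 in the other 2, whereas for Hoxb3 to Hoxb6 WT 12 was the highest and WT 3 the lowest WT tumour. KO 11 was among the lowest 2 tumours in 4 of the 7 and KO 9 in 3. WT 3 and WT 12 also had the highest Krt20, 11.13 and 11.32, the epithelial marker with the widest range (4.01), and with it the highest epithelial means, 12.69 and 12.76. They had the highest squamous means, 7.25 and 7.66, and the highest Cdx2, 11.81 and 11.84. The members of these lists did not all go this way. Of the squamous markers, Krt13 was highest in WT 3 and WT 12, at 8.11 and 9.13. Krt14 was highest in KO 2, at 9.98, and Krt5 and Trp63 in WT 3 and WT 12 lay within the KO range. The epithelial marker Vil1, at 11.55 and 11.64, lay below the 11.66 to 11.96 of the KO tumours. KO 9, low in cluster A, had the highest Cdh1 and Vil1, epithelial markers, at 12.42 and 11.96. The part of these differences in the cluster A signals was not tested.

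Cluster C had little to show. Its 7 genes spanned 0.23 to 0.65 log2 units over the 10 tumours, and the median difference was 0.00. Hoxc5, the tested member, read 6.10, 6.00, 5.92, 6.16 and 6.26 in KO 2, KO 6, KO 7, KO 9 and KO 11, against 6.20, 6.57, 6.36, 5.92 and 6.06 in WT 1, WT 3, WT 8, WT 12 and WT 13. The groups overlapped, and the difference was -0.14 ± 0.14 (SE; adjusted p = 0.6 by limma). Hoxc13, known for hair and nails, read 3.28 to 3.60 in KO and 3.33 to 3.68 in WT tumours. Hoxc4, Hoxc6, Hoxc8, Hoxc9 and Hoxc10 read between 2.25 and 5.95 in KO and between 2.25 and 6.00 in WT tumours, each under the filter.

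Of the 33 HOX genes 27 had a lower mean in KO tumours, against 9080 of all 18193 genes, and the median difference was -0.26. Some of the 27 lay near 0, such as Hoxc13 (-0.003) and Hoxb2 (-0.03), and genes of a cluster are not independent. Among the 16 tested genes 14 lay below 0, against 5695 of all 12250 tested genes. The median of the 16 was -0.65, against 0.02 for all tested genes. The level filter used the mean over all tumours, so a gene could be tested through high WT tumours alone. In Hoxb3, Hoxb5 and Hoxd8 every KO tumour lay under the filter, with highest KO signals of 5.33, 5.70 and 5.11. The WT means of all 16 genes lay above it. How far this selection shaped the median of -0.65 was not tested. An unadjusted p under 0.05 was reached by 5 of the 16 (31.2%), Hoxb3, Hoxb4, Hoxb5, Hoxb13 and Hoxd8, against 22.4% of all tested genes, and 4 of these lay lower in KO tumours, against 9.58% of all tested genes. By paralogue number, the median difference was -0.26 for numbers 1 to 3 (7 genes), -0.28 for numbers 4 to 8 (12 genes) and -0.20 for numbers 9 to 13 (14 genes). Paralogues of 1 number differed from one another: at number 13, Hoxb13 had a raw difference of 1.04 and Hoxd13 of -1.77, and at number 5, Hoxb5 had -3.02 and Hoxc5 -0.14. Of 11 genes with several probe sets, 8 had the same sign in all of them.

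**Figure D4:**
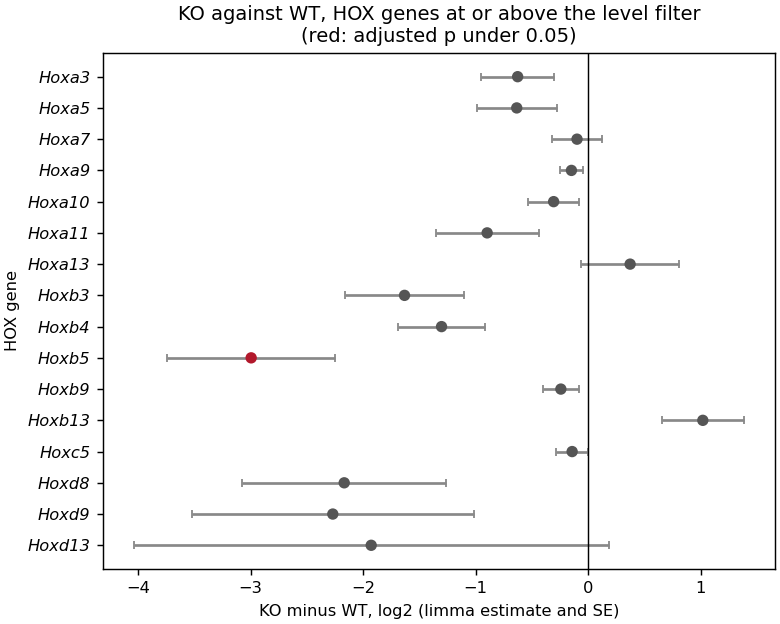
KO minus WT difference in log2 units (point) with its standard error (bar) from limma for the 16 tested HOX genes, with red for an adjusted p under 0.05. Hoxb5, at -3.00, is the red point, and Hoxb13 and Hoxa13 are the points right of 0.

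Genes beside the clusters were taken as the 3 nearest protein-coding genes on each side. Next to cluster A, 3 of 6 passed, where 7.09% of all tested genes did: Evx1, a homeobox gene of spinal interneurons that sits past Hoxa13, fell, and Tax1bp1, an autophagy receptor, and Hibadh, an enzyme of valine breakdown, rose. Evx1 read 7.27, 8.81, 9.02, 9.18 and 8.22 in KO 2, KO 6, KO 7, KO 9 and KO 11, against 10.78, 9.92, 10.10, 9.96 and 10.03 in WT 1, WT 3, WT 8, WT 12 and WT 13. The groups did not overlap, WT 1 was highest and KO 2 lowest. The fitted difference was -1.65 ± 0.36 (SE), 3.14-fold, with an adjusted p of 0.0219 by limma. The call was lost without WT 1 (adjusted p = 0.0558), with mouse means (0.0549) and in a fit that adds the number range (0.064). Its difference was -0.97 among numbers 191 to 229 and -2.41 among 254 to 258.

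Tax1bp1 read 11.54 to 12.21 in KO and 10.68 to 11.22 in WT tumours, with no overlap, a difference of 0.98 ± 0.15 (SE) and an adjusted p of 0.00414 by limma. It kept its call when the fit adds the range (1.11, adjusted p = 0.00833), and the difference was 1.06 among numbers 191 to 229 and 1.16 among 254 to 258. Hibadh read 10.40 to 10.63 in KO and 9.99 to 10.20 in WT tumours (difference 0.43 ± 0.09, adjusted p = 0.019 by limma). Its adjusted p by limma was 0.0618 without KO 6, 0.0748 in a fit that adds the range and 0.149 with mouse means. With probe sets named x_at or s_at left out it was 0.104, and the call was also lost without mouse 02 or mouse 04. The Hibadh difference was 0.31 among numbers 191 to 229 and 0.45 among 254 to 258.

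Next to cluster B, 1 of 4 tested neighbours passed, where 7.09% of all tested genes did. Ttll6, a tubulin polyglutamylase, read 6.49 to 7.08 in KO and 5.71 to 6.42 in WT tumours (difference 0.69 ± 0.17, adjusted p = 0.0354 by limma). That call was lost without KO 2 (0.0529), KO 6 (0.103), KO 9 (0.0506), KO 11 (0.0642), WT 1 (0.064), WT 3 (0.065) or WT 13 (0.0573), with mouse means (0.241), in a fit that adds the range (0.0833) and with the 3′ to 5′ covariate (0.0642). Leaving out mouse 02 or mouse 04 also lost the Ttll6 call. Among numbers 191 to 229 its difference was 0.22 and among 254 to 258 it was 1.25. None of the 6 tested neighbours of cluster C and of the 3 tested neighbours of cluster D passed, and Smug1, a DNA repair glycosylase beside cluster C, had an unadjusted p of 0.0422. Evx2, beside Hoxd13, lay under the filter at 4.79 to 5.51 in KO and 5.13 to 5.69 in WT tumours, with no such split as its neighbour. Within the clusters, Hoxa11os read 7.52 to 8.64 in KO and 6.65 to 8.87 in WT tumours (adjusted p = 0.404), and Hoxb5os, under the filter, 4.03 to 4.58 in KO and 4.44 to 5.18 in WT tumours.

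Partners and regulators of HOX genes were read from lists by role. Of the TALE co-factors, the homeodomain partners, 0 of 6 tested genes passed, and Pbx3 had a difference of -0.50 (adjusted p = 0.11) and Pbx2 one of 0.31 (adjusted p = 0.215). The median difference of the list was 0.03, and that of all tested genes in the same fit was also 0.03. The other 2 measured partners, Meis1 and Meis2, lay under the filter. Both had no overlap, where 7.56% of all genes had none, and they were chosen after their values were seen. Meis2 read 3.88, 4.14, 3.80, 3.92 and 3.08 in KO 2, KO 6, KO 7, KO 9 and KO 11, against 6.81, 5.89, 5.16, 4.64 and 6.48 in WT 1, WT 3, WT 8, WT 12 and WT 13, a raw difference of -2.03. Meis1 read 5.09 to 5.34 in KO and 5.48 to 6.39 in WT tumours, a raw difference of -0.66. Of the Cdx and retinoid genes 0 of 13 passed, with no unadjusted p under 0.05 and a median difference of 0.01. Cdx2, which sets intestinal identity, lay between 9.26 and 10.91 in KO and between 8.21 and 11.84 in WT tumours (difference 0.01, adjusted p = 0.995). Rxrb and Rara, retinoid receptors, had differences of 0.28 (adjusted p = 0.263) and 0.17 (adjusted p = 0.272).

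Among Polycomb genes, which hold HOX clusters silent, 1 of 15 tested genes passed, against 7.09% of all tested genes. Cbx6, a chromodomain subunit of Polycomb complex PRC1, fell: it read 8.49, 8.43, 7.46, 8.14 and 8.48 in KO 2, KO 6, KO 7, KO 9 and KO 11, against 10.61, 8.75, 10.02, 9.23 and 10.27 in WT 1, WT 3, WT 8, WT 12 and WT 13. The groups did not overlap, and WT 3 was the lowest WT tumour. Its difference was -1.59 ± 0.37 (SE), 3.02-fold, with an adjusted p of 0.0293 by limma. The call was lost without KO 6 (0.0673), WT 1 (0.0586), WT 8 (0.0575) or WT 13 (0.0594), with mouse means (0.0509) and with the 3′ to 5′ covariate (0.0665). Leaving out mouse 02 or mouse 04 also lost the Cbx6 call. The difference was -2.08 among numbers 191 to 229 and -2.22 among 254 to 258. With Cbx6 counted, 6 of the 15 had an unadjusted p under 0.05, against 22.4% of all tested genes, and the median difference of the list was -0.12. Of the Trithorax genes, which keep HOX genes active, 0 of 9 tested genes passed (median difference -0.05), with Ash2l at -0.30 (adjusted p = 0.0916) and Kmt2a at 0.36 (adjusted p = 0.213). Of the regional gut factors 0 of 7 passed (median difference 0.32), with Pdx1, a factor of duodenum and pancreas, at 0.73 (adjusted p = 0.168) and Onecut2, a liver and duodenal factor, at 1.70 (adjusted p = 0.174). Sox2, a factor of oesophagus and stomach under the filter, chosen after its values were seen, read 2.36 to 2.63 in KO tumours and 5.75, 4.48, 8.28, 3.57 and 3.94 in WT 1, WT 3, WT 8, WT 12 and WT 13. Its groups did not overlap, and its raw difference was -2.72, the other way from Pdx1 and Onecut2.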

How the data were processed

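RNA of 10 laser-dissected colon tumours was measured on 1 array each. The authors deposited log2 values, 1 for each probe set of an array, and RMA is the tool that the submitters' processing notes name. No version, genome build or detection call is given in the sources used here, so nothing is said about signal over background, and the number of arrays limits the precision. The 45101 probe sets comprised 64 controls, 34945 with 1 gene symbol, 932 with several and 9160 with none, and 34741 symbols were updated by Entrez identifier to RefSeq names. Each gene was given by its probe set of highest mean. Genes whose mean reached the 40th percentile of probe sets (log2 5.82) were fitted with limma 3.58.1 (R 4.3.3, statmod 1.5.0), KO against WT, with the mouse as a random block (consensus correlation 0.0586), and p-values were adjusted by Benjamini-Hochberg over 12250 genes at a threshold of 0.05. The fit was tested on simulated data. Values in every tumour are given for HOX genes with an unadjusted p under 0.05 and, per cluster, for the tested genes with the largest difference and the largest SD (9 genes). Hoxb6, Hoxb7, Hoxd10, Hoxd11 and other members were described after their values were seen. In each list the members past the threshold were named, at most 4, or else the 2 with the smallest p. The HOX genes, lists and motifs were chosen with earlier results of these data known. Alternatives covered the block, mouse means, number ranges, filter, probe set choice, normalisation, the 3′ to 5′ difference and each tumour and mouse left out.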

Additional observations from a re-analysis of the deposited data

Results flagged for a closer look

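The 66 groups of 5 tumours (33 HOX genes in each genotype) were examined for a lone tumour far from the other 4, by Dixon's test with a critical ratio of 0.71. In 6 groups there was one, where chance gives about 1 in 20 groups. KO 6 stood alone above the other KO tumours in 4 neighbouring cluster D genes, with log2 signals of 9.25 for Hoxd9, 9.27 for Hoxd10, 7.91 for Hoxd11 and 11.38 for Hoxd13, where the next highest KO tumour read 5.24, 3.59, 4.29 and 4.45. These genes share a tumour and a cluster and are not independent. WT 12 stood alone at 6.34 for Hoxd3, with the next WT tumour at 3.67. WT 8 stood alone at the low end for Hoxb1, at 2.37, with the next WT tumour at 2.61.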

How the results depend on the processing

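No paired analysis was possible because no mouse gave both KO and WT tumours. Over 28 alternatives, the median difference over the tested HOX genes lay between -0.90 and -0.25. The count of HOX genes lower in KO, 1 as reported, was 2 with no block, with mouse means and without mouse 72, 3 within numbers 254 to 258, 0 within 191 to 229, with a 60th percentile filter (Hoxb5 was then not tested), with the 3′ to 5′ covariate and without mouse 02, 99 or 04, and 0 to 3 with 1 tumour left out. The count higher in KO was 0, and 1 within 254 to 258 (Hoxb13). Over all genes, 509 higher and 359 lower became 195 and 193 with mouse means, 12 and 18 within 191 to 229, 331 and 217 with the 3′ to 5′ covariate, 318 and 230 without mouse 02, 265 and 202 without mouse 04, and 135 and 153 without mouse 72. With a 60th percentile filter 219 were lower. With 1 tumour left out they were 286 to 539 and 186 to 406. The number of genes called in the partner, regulator and gut factor lists (without cluster neighbours and cell type markers), 1 as reported, was 3 with no block, no level filter, the mean of probe sets and within 254 to 258, 2 with the range covariate, cyclic loess and without mouse 99, 0 within 191 to 229, with the 3′ to 5′ covariate and without mouse 04, 72 or 82, and 0 to 3 with 1 tumour left out. The Hoxd13 difference was 0.46 within 254 to 258 and that of Hoxa11 0.0712 without mouse 72, both with the sign reversed. Hoxb5 lay between -4.40 and -2.28. Fits within a range and without mouse 72 hold 1 tumour in a group, assumed to vary like the others, although the SD of Hoxb5 was 0.32 in KO and 1.75 in WT tumours, so their counts measure no genotype difference. In the other fits the adjusted p of Hoxb5 by limma was 0.00457 to 0.125. The causes were not tested.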
